A study of Mus musculus with 30 samples.

Results

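Interferon response and class I antigen presentation genes were followed in the whole brain of Arid1b-mutant mice. The group was given as a list of 40 gene symbols, chosen by name with earlier results of these data known. Of these, 39 were among the 19737 genes in the table (Zbp1, a sensor of Z-form nucleic acid, was not analysed here). By role they were 7 receptor and signal genes, 10 measured nucleic acid sensors, 16 effectors and 6 genes of major histocompatibility complex (MHC) class I presentation. Poly-A RNA of whole brains from male C57BL/6N mice was sequenced in 30 libraries, 5 in each of 6 groups. At postnatal day 10 (P10) the groups were wild type (WT) and Arid1b heterozygous (HT, Arid1b+/-), with no drug or vehicle given in the labels. At P120 they were WT-Veh, HT-Veh, WT-Flx and HT-Flx, whose dams had drunk water with 0.2% saccharin, with fluoxetine (a serotonin reuptake inhibitor) at 0.1 mg/ml in the Flx groups and none in the Veh groups, from P3 until P21, so that the pups received it through the milk; plain water followed weaning. The mutation truncates the protein and lowers Arid1b in the whole animal, not in one cell type. The labels give no litter for any mouse, and p-values measure only the spread between these samples.

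Type I interferons bind a cell-surface receptor made of IFNAR1 and IFNAR2. Through kinases of the JAK family the receptor activates STAT2, which joins IRF9 in a complex that binds an interferon-stimulated response element in the promoters of many target genes. The products of these targets sense foreign nucleic acid, block steps of viral replication, or raise the display of peptides on MHC class I at the cell surface. In the healthy brain a low tonic level of this response is known, microglia and endothelial cells carry much of the class I expression, and class I molecules also have described roles at synapses.

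The core of the response element can be written as GAAA, any 2 bases, and GAAA again (called the response element core here), and STAT dimers bind TTCNNNGAA. Both were searched on both strands in the RefSeq promoter windows of GRCm38.p6, 250 bases before to 50 after a transcription start, of which 37 windows from 31 of the 40 listed genes matched by symbol. The response element core was found in 13 of the 31 genes (41.9%), against 3.99% of all 27025 genes with a window. TTCNNNGAA was found in 10 of the 31 (32.3%), against 9.55% of all. Because the members were chosen by name as interferon response and antigen presentation genes, these shares are a description and not a test. The 2 motifs overlapped at 2 places in member windows, and matches of the core overlapped each other in the windows of Bst2, Isg15 and Oas1a. The 250 bases before the start are shown for 3 neighbouring Ifit genes that differed in direction between ages, for B2m and Isg15, and for Ifi203, which had the largest difference between ages; capitals mark the response element core or its reverse complement.
Ifit1, chr19:34640639-34640888, plus strand: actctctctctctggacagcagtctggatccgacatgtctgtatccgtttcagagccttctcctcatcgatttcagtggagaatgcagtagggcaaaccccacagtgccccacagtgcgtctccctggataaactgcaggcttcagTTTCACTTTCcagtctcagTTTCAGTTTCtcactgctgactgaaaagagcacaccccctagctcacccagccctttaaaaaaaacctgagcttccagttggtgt
Ifit3, chr19:34583279-34583528, plus strand: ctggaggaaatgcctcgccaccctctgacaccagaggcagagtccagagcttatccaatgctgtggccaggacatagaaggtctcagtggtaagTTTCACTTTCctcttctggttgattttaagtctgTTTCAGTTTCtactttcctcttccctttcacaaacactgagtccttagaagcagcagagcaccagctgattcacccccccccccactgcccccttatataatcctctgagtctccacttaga
Ifit2, chr19:34550444-34550693, plus strand: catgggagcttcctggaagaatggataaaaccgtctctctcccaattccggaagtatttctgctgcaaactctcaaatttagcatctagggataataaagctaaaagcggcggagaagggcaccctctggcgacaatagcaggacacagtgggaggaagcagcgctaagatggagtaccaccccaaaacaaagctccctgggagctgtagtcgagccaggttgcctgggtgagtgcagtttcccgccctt
B2m, chr2:122147437-122147686, plus strand: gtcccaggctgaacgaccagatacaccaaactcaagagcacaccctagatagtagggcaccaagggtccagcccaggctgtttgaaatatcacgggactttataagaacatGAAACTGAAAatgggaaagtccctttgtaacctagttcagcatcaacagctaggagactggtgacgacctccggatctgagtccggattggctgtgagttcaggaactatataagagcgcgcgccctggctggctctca
Isg15, chr4:156200819-156201068, minus strand: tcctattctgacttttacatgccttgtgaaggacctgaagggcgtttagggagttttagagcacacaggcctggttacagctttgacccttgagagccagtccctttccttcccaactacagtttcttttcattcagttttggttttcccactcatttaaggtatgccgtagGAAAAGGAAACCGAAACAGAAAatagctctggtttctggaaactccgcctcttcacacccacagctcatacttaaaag
Ifi203, chr1:173942493-173942742, minus strand: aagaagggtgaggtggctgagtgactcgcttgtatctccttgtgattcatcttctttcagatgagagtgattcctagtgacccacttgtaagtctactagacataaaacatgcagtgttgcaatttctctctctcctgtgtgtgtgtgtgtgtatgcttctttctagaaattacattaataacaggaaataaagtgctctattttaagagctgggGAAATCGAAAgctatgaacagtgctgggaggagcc
The matches began 104 and 85 bases before the start in Ifit1, 156 and 122 in Ifit3, 139 in B2m, and 35 in Ifi203, which has a second window without a match. Isg15 had 3 overlapping matches, at 78, 72 and 66 bases before its start. The Ifit2 window shown held none; it held 1 copy of TTCNNNGAA, and a second Ifit2 window held neither. No match says only that these letters are not in this window.

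Values are normalized counts, that is, estimated read counts divided by size factors of the authors, and their sums ran from 31578613 to 41801036 per library. Arid1b fell at P10, from 3263 ± 57.4 in WT to 2234 ± 68.2 in HT (SD, n = 5 each; limma, adjusted p = 1.52e-05). At P120 the library labelled HT-Veh replicate 2 had 3361 and the library labelled WT-Veh replicate 2 had 2320, each at the level of the other genotype. HT-Veh against WT-Veh was tested with the other 4 and 4 libraries, those of the study's own results for this comparison, although its figure legend gives n = 5. The remaining comparisons are given with and without this pair. The libraries also differed in how their values followed the GC content of genes. Spearman's rho between a library's deviation from the mean of its age and gene GC content was 0.48 to 0.71 in the 5 HT-Flx libraries, -0.70 to -0.56 in the 5 WT-Flx libraries, -0.67 to 0.63 in HT-Veh and -0.57 to 0.36 in WT-Veh (across genes, a description of each library). The study's methods name a GC bias correction during read quantification, and these slopes were found in the values deposited after it. In a second fit, genes were sorted into bins by GC content and length, and the average offset of a library in a bin was taken off. This further correction is given beside results for members and other pathway genes whose call or direction it changes or whose value it moves by more than 1.5 times.

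**Figure D1:**
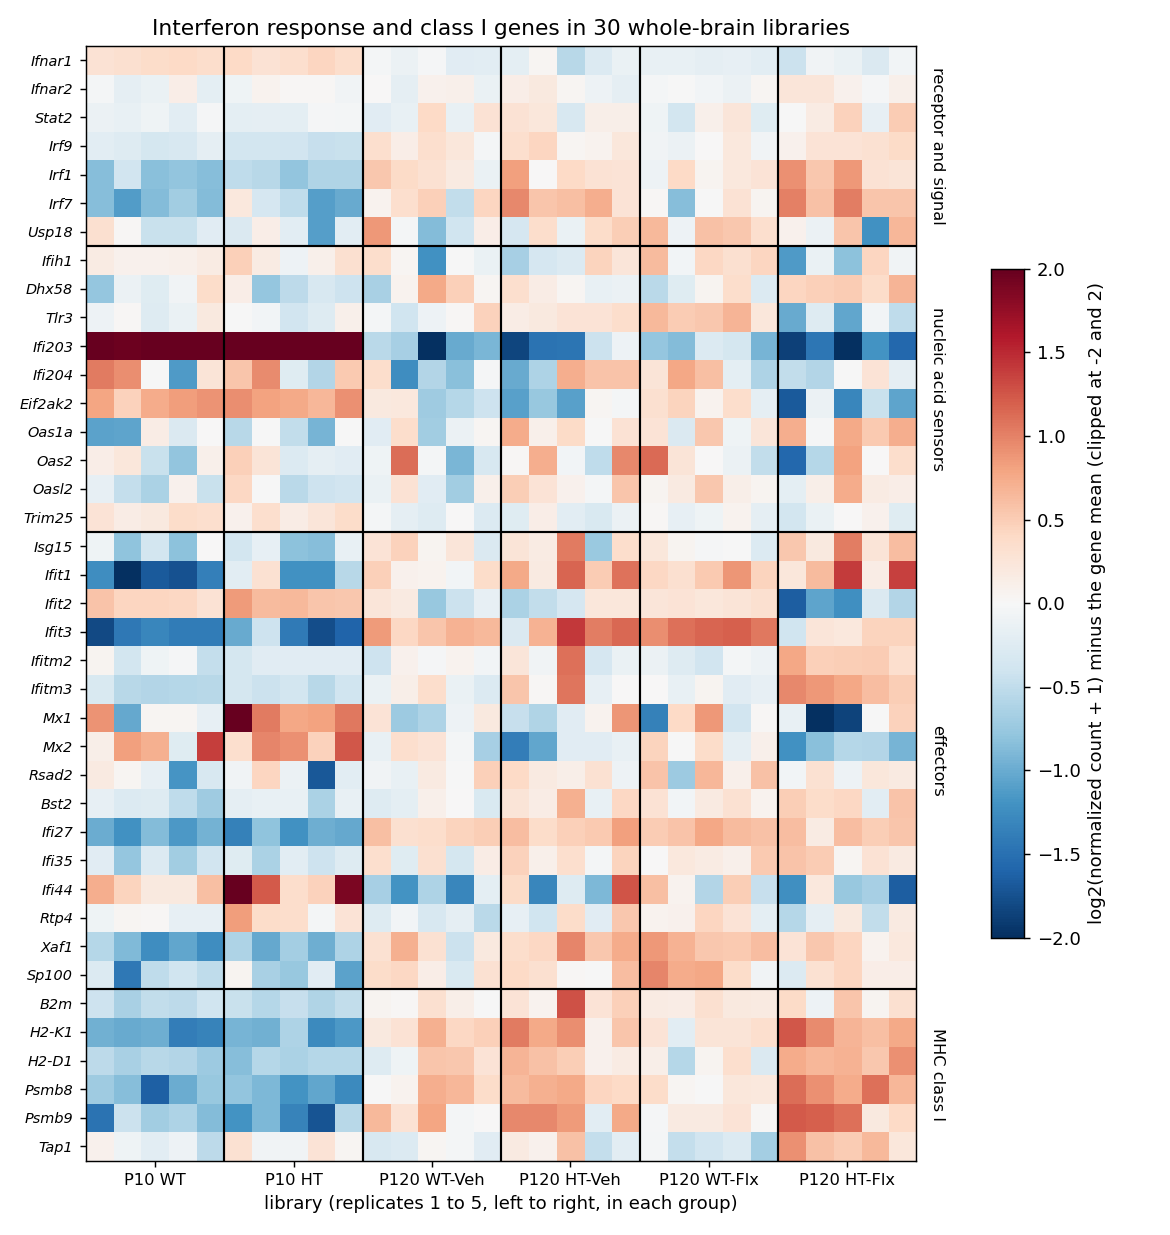
Heat map of log2(normalized count + 1) minus each gene's mean over all 30 libraries, for the 39 members (rows, by role) in the 6 groups (columns, replicates 1 to 5 left to right; red above and blue below the mean, clipped at the ends of the colour bar). Ifi203 was higher in all 10 P10 libraries, most class I genes and Ifit1, Ifit3 and Ifi27 were higher at P120, and HT-Veh replicate 3 stood above its group for Ifitm2, Ifitm3 and B2m.

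The age of the mice gave the widest differences among the members. WT-Veh brains at P120 were set against WT brains at P10, and HT-Veh against P10 HT; the 2 comparisons share no library. Age goes together with vehicle exposure, which the P10 labels do not list, and with a different code in the sample names, and these cannot be told apart. In WT, 22 of 37 tested members differed (limma on log2(value + 1), adjusted p under 0.05), 16 higher and 6 lower at P120, when 58.3% of all genes tested were called, 28.9% higher and 29.4% lower. The ages did not overlap for 13 members higher and 6 lower, against 45.6% of all genes in either direction. The share of members called was near that of all genes, and the members' median log2 fold change was 0.31, against -0.01 over all genes. In HT, 26 of 38 differed, 18 higher and 8 lower, against 51.1% of all genes called (25.8% higher, 25.3% lower), with a median of 0.50 against -0.02; 14 members higher and 5 lower had ages that did not overlap, against 40.2% of all genes. Of the members called higher, 15 were shared, out of 16 in WT and 18 in HT; of those called lower, 6 were shared, out of 6 in WT and 8 in HT. The difference between the genotypes in their age change passed the test for 0 of 37 members (limma, background 0; unadjusted p under 0.05 in 0 members and 3.40% of all genes). Its smallest p-values belonged to B2m (log2 0.39, SE 0.211), Mx2 (-0.78, SE 0.434) and Psmb9 (0.65, SE 0.382), all with limma adjusted p = 0.877.

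Among the 6 class I genes, 5 were higher at P120 in both genotypes and Tap1 was not called in either. H2-K1 encodes a class I heavy chain. It read 426, 410, 418, 318 and 327 in the P10 WT libraries and 945, 1009, 1353, 1105 and 1147 in WT-Veh, and 435, 422, 537, 342 and 371 in P10 HT against 1703, 1394, 1568, 878 and 1220 in HT-Veh. Every adult library was above every P10 library of its genotype, and the log2 fold change was 1.55 (SE 0.117, limma adjusted p = 2.16e-07) in WT and 1.66 (SE 0.179, adjusted p = 9.68e-06) in HT.

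B2m, the light chain shared by all class I molecules, read 1081, 919, 1023, 1003 and 1099 in P10 WT and 1493, 1465, 1803, 1559 and 1435 in WT-Veh. In HT it read 1058, 968, 1043, 947 and 1031 at P10 and 1736, 1523, 3500, 1738 and 2000 in HT-Veh. The ages did not overlap in either genotype, and HT-Veh replicate 3 was far above the other 4 adult HT libraries. The rise was 0.60 (SE 0.0788, limma adjusted p = 2.99e-05) in WT and 0.99 (SE 0.186, adjusted p = 7.67e-04) in HT, where leaving out any 1 library gave 0.79 to 1.09. H2-D1, a further heavy chain, rose by 0.82 (SE 0.141) in WT and 1.04 (SE 0.131) in HT, with the ages apart in both; after the correction the HT value was 0.66, still called.

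Psmb8 and Psmb9 encode subunits of the immunoproteasome, the protease form that cuts peptides for class I. Psmb8 rose from 44.0 ± 10.1 to 114 ± 26.2 in WT (SD, n = 5 each) and from 41.6 ± 5.97 to 130 ± 15.2 in HT, by 1.35 (SE 0.209) and 1.63 (SE 0.157) on the log2 scale. Psmb9 rose by 1.16 (SE 0.244) in WT and 1.80 (SE 0.287) in HT, and its ages did not overlap in either. Tap1, which carries peptides into the endoplasmic reticulum, lies between these genes on chromosome 17 and read 131 ± 19.9 and 130 ± 14.5 in P10 WT and WT-Veh and 157 ± 20.8 and 154 ± 43.6 in P10 HT and HT-Veh; its age change was 0.00 (SE 0.134) in WT and -0.06 (SE 0.189) in HT. Psmb9 (34181987 to 34187764) and Tap1 (34187553 to 34197225) overlap at their starts in GRCm38, and reads in that stretch could belong to either; strand-specific counting is not given in the sources used here.

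The effectors divided by direction. Ifit1, Ifit2 and Ifit3, whose products bind viral RNA or translation factors, lie within one stretch of chromosome 19 (34550694 to 34650009) and did not move together. Ifit3 read 44.3, 57.5, 62.6, 59.1 and 58.8 in P10 WT and 284, 210, 230, 254 and 246 in WT-Veh. In HT it read 77.7, 118, 58.5, 45.3 and 51.2 at P10 and 128, 254, 421, 321 and 348 in HT-Veh. The ages did not overlap, although HT-Veh replicate 1 was close to the highest P10 HT library, and the rise was 2.10 (SE 0.129, limma adjusted p = 3.63e-08) in WT and 2.04 (SE 0.318, adjusted p = 1.90e-04) in HT. Ifit3b, a near-identical copy that can share reads with it, rose by 2.44 (SE 0.192) and 2.35 (SE 0.265), so that how these reads divide between the 2 genes is uncertain.

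Ifit1 read 18.8, 10.1, 13.6, 13 and 17.1 in P10 WT and 64.3, 48.9, 48.2, 44.3 and 59.7 in WT-Veh, and 39.7, 56.6, 19.3, 19.2 and 31.0 in P10 HT against 78.0, 52.2, 104, 65.7 and 98.6 in HT-Veh. The WT ages stood apart; in HT, P10 replicate 2 was above HT-Veh replicate 2. The rise was 1.82 (SE 0.209, limma adjusted p = 8.77e-06) in WT and 1.32 (SE 0.305, adjusted p = 0.00309) in HT. Ifit2 went the other way, from 333, 302, 302, 296 and 273 in P10 WT to 265, 254, 132, 165 and 200 in WT-Veh, and from 404, 346, 350, 328 and 324 in P10 HT to 143, 159, 177, 262 and 261 in HT-Veh. All adult libraries were below all P10 libraries of their genotype, by -0.61 (SE 0.170, limma adjusted p = 0.00765) in WT and -0.85 (SE 0.177, adjusted p = 0.00163) in HT. With the GC content and length correction the WT change of Ifit2 was -0.28 and was no longer called, and the HT change was -0.39 and was called.

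**Figure D2:**
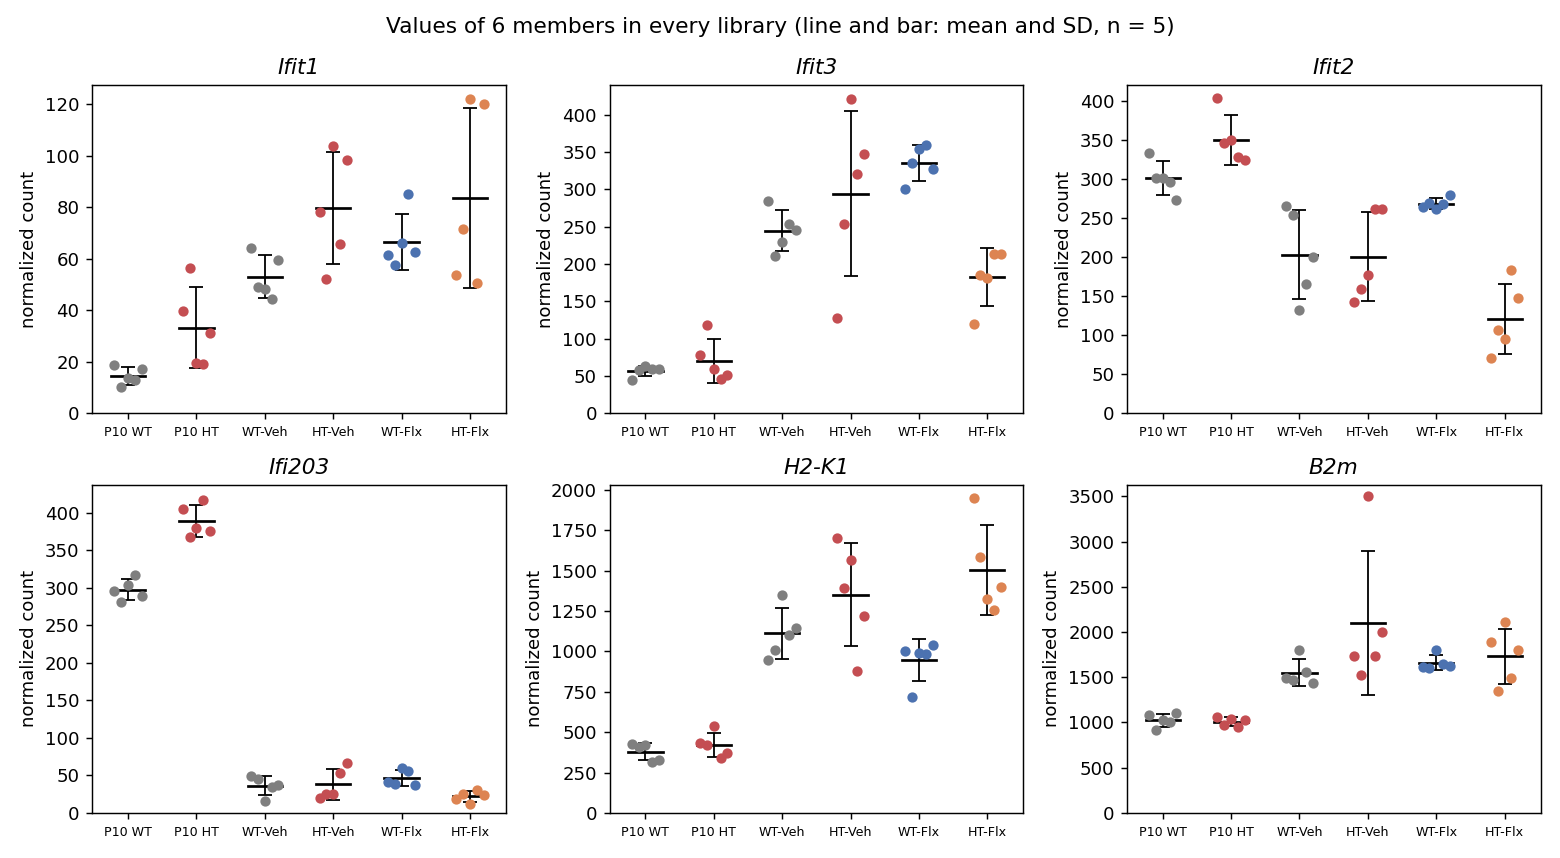
Normalized counts of Ifit1, Ifit3, Ifit2, Ifi203, H2-K1 and B2m in every library of the 6 groups (points; line and bar, mean and SD, n = 5; axes start at 0). Ifit1, Ifit3, H2-K1 and B2m sat higher in the P120 groups and Ifit2 and Ifi203 lower, with Ifit3 and Ifit2 also lower in HT-Flx than in WT-Flx.

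Of the other effectors, Ifi27, a small mitochondrial and nuclear-membrane protein, rose from 231 ± 22.8 to 642 ± 49.5 in WT and from 225 ± 33.9 to 699 ± 83.5 in HT (SD, n = 5 each), by 1.47 (SE 0.0923) and 1.63 (SE 0.133). Xaf1, which binds an inhibitor of apoptosis, rose by 1.21 (SE 0.213) and 1.39 (SE 0.171). Ifitm3, a membrane protein that blocks viral entry, rose by 0.50 (SE 0.125) and 0.72 (SE 0.205), and Sp100, a component of nuclear bodies, by 0.81 (SE 0.232) and 0.80 (SE 0.229). Ifi35 was called higher in both genotypes, by 0.51 and 0.61, and in neither after the GC content and length correction. Isg15, the ubiquitin-like modifier, was called in WT (0.56, limma adjusted p = 0.0456) and not in HT (0.68, adjusted p = 0.0742), and Bst2, a tether of budding virus, in HT (0.52, adjusted p = 0.0268) and not in WT (0.26, adjusted p = 0.149); neither difference between genotypes passed the test. Both calls were lost with the GC content and length correction.

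Ifi44 was lower at P120 in both genotypes, by -1.23 (SE 0.292) in WT, from 15.2 ± 2.68 to 6.13 ± 2.25, and by -1.49 (SE 0.534) in HT, from 34.7 ± 25 to 12.0 ± 9.55, where the call was lost with the correction. Mx1 and Mx2 encode dynamin-like GTPases, and both are known to be defective at the protein level in C57BL/6 mice. Mx2 read 32.1, 50.3, 48.2, 35.0 and 61.0 in P10 HT and 9.0, 11.7, 21.5, 21.3 and 22.5 in HT-Veh, with no overlap and a log2 fold change of -1.39 (SE 0.295, limma adjusted p = 0.00172). In WT the Mx2 ages overlapped, and the change was -0.61 (SE 0.303, adjusted p = 0.101). Mx1 was lower in HT by -1.33 (SE 0.426, limma adjusted p = 0.0190), with overlapping ages and P10 HT replicate 1 at 42.3 against 10.7 to 13.2 in the other 4; in WT it was under the minimum mean and was not tested.

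Among the members called, the sensors were the one role with more lower than higher. Ifi203, of the family of cytosolic DNA-binding proteins, read 296, 281, 303, 317 and 289 in P10 WT and 48.7, 44.5, 15.5, 35.0 and 37.4 in WT-Veh. In HT it read 405, 368, 379, 417 and 375 at P10 and 19.3, 25.1, 25.3, 53.0 and 66.4 in HT-Veh. The ages were far apart in both genotypes, with log2 fold changes of -3.09 (SE 0.244, limma adjusted p = 3.20e-07) and -3.49 (SE 0.286, adjusted p = 9.38e-07), or -2.66 and -2.86 with the GC content and length correction. Its neighbours in the same family on chromosome 1 are alike in sequence, so reads could be split among them; Ifi204 was at 8.92 ± 4.99 in P10 WT and was not tested in any comparison.

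Eif2ak2 (PKR), the kinase that stops translation on double-stranded RNA, read 245, 196, 238, 254 and 265 in P10 WT and 162, 164, 85.7, 95.0 and 106 in WT-Veh, and 270, 249, 241, 225 and 268 in P10 HT against 65.9, 83.1, 66.4, 145 and 137 in HT-Veh. The ages did not overlap, and the changes were -1.01 (SE 0.185) and -1.41 (SE 0.222). Trim25, a ubiquitin ligase of the RIG-I pathway, was lower by -0.41 (SE 0.0921) and -0.38 (SE 0.121), and with the GC content and length correction was at -0.23 in both and was called in WT alone. Tlr3, the endosomal receptor of double-stranded RNA, and Oas1a, which makes 2-5A oligoadenylate, were called higher in HT (0.37, limma adjusted p = 0.0242, and 0.70, adjusted p = 0.0410) and not in WT (0.04 and 0.32), and their difference between genotypes did not pass the test; the call of Oas1a was lost with the correction, and Tlr3 in HT was 0.75 with it. The RNA helicases Ifih1 (MDA5) and Dhx58 (LGP2), and Oas2 and Oasl2, were not called in either genotype.

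Among the receptor and signal genes, Ifnar1 was lower with age and 3 transcription factors were higher. Ifnar1 read 1800, 1841, 1898, 1942 and 1873 in P10 WT and 1431, 1352, 1438, 1248 and 1267 in WT-Veh, a change of -0.48 (SE 0.0627), and it changed by -0.58 (SE 0.115) in HT, in both without overlap. Ifnar2, the second receptor chain, changed by 0.06 (SE 0.0923) in WT and 0.03 (SE 0.108) in HT, and was not called. Irf1 rose by 1.00 (SE 0.145) in WT, from 108 ± 17.2 to 217 ± 36.5, and by 0.97 (SE 0.152) in HT. Irf7, the factor that amplifies type I interferon production, rose by 1.04 (SE 0.200) and 1.17 (SE 0.246), and Irf9 by 0.46 (SE 0.0887) and 0.63 (SE 0.110), all without overlap between ages. Stat2, the partner of IRF9, and Usp18, which switches the receptor off, were not called.

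**Figure D3:**
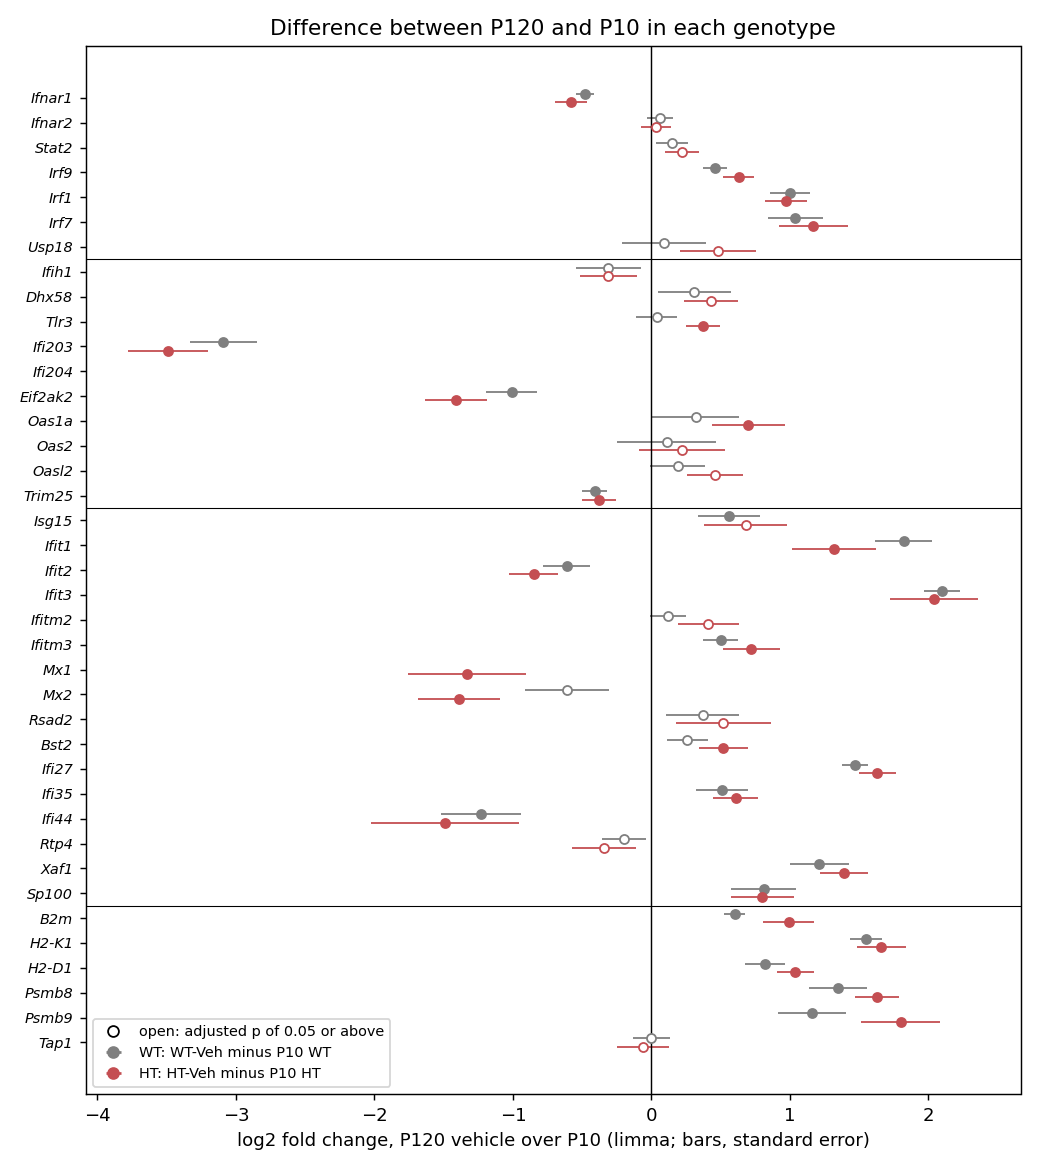
Log2 fold changes of each tested member between P120 vehicle and P10, in WT (grey) and HT (red), with standard errors; filled points passed the limma test. The class I genes other than Tap1 lay between 0.60 and 1.80, Ifi203 lay at -3.09 and -3.49, and Ifit2 lay opposite to Ifit1 and Ifit3.

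With the GC content and length correction, 20 members were called in WT, 19 of them among the 22 above, against 59.4% of all genes, and 22 in HT, 21 of them among the 26, against 56.0%. In both genotypes the added member was Rsad2, called higher. Without the libraries labelled HT-Veh and WT-Veh replicate 2, 21 members were called in WT (56.1% of all genes) and 24 in HT (45.6%), and 0 for the difference between genotypes (0%). Rescaling every library to the same sum moved the median of all genes to -0.12 in WT and -0.18 in HT and gave 14 higher and 6 lower members in WT and 15 and 8 in HT, while the calls over all genes went to 39.3% and 37.3% higher, from 49.5% and 50.5%.

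Fewer cells of a type and less RNA per cell cannot be told apart in whole brain. The summed level of 12 microglial markers was 8017 to 10425 in P10 WT, 8776 to 9579 in P10 HT, 9878 to 13761 in WT-Veh and 11718 to 17308 in HT-Veh. Within the list, 7 of the 12 were higher with age in WT, among them Trem2 (1.38), C1qa (1.09) and C1qb (1.05), Cx3cr1, Aif1, Sall1 and Siglech were not called in WT, and P2ry12 was lower (-0.46). The 8 endothelial markers overlapped between ages in both genotypes. They summed to 8253 to 9069 in P10 WT and 7296 to 8701 in WT-Veh. In HT they summed to 7191 to 8443 at P10 and 6879 to 8447 in HT-Veh. The 6 choroid plexus markers summed to 11631 to 15876 in P10 WT and 22947 to 34270 in WT-Veh, and to 7342 to 12413 in P10 HT and 24585 to 38487 in HT-Veh. The 5 pericyte markers went the other way, from 8966 to 9608 in P10 WT to 5032 to 5693 in WT-Veh and from 7669 to 8593 in P10 HT to 5201 to 6224 in HT-Veh. So did the 6 markers of perivascular and border macrophages, from 385 to 639 to 205 to 351 in WT and from 413 to 630 to 158 to 334 in HT. The 5 meningeal fibroblast markers summed to 5149 to 24741 in P10 WT and 2687 to 3300 in WT-Veh, and overlapped between ages in HT. The 4 neutrophil and monocyte markers in the table summed to at most 54.4 at P10 and 316 at P120, and 2 of 7 lymphocyte markers were in the table. The part of these cells in the members' differences was not tested.

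Other genes of the same pathways are set against the same shares of all genes, 58.3% called in WT and 51.1% in HT. Of 22 other antigen presentation genes, 12 were higher and 3 lower in WT and 13 higher and 2 lower in HT, among them the class I gene H2-T23 (1.56, SE 0.0951, and 1.86, SE 0.142), Tap2, the partner of Tap1 (1.35, SE 0.132, and 1.40, SE 0.184), and the class II genes H2-Aa (1.91 and 2.49) and H2-Ab1 (1.29 and 1.61). Of 14 other receptor and signal genes, 6 were higher and 3 lower in WT and 6 higher and 1 lower in HT; Irf3 rose by 0.85 and 1.00, and Ifngr2, a chain of the type II receptor, fell by 1.07 in WT and by 0.81 in HT. With the GC content and length correction the HT rise of Irf3 was 0.63. Of 14 other sensing genes, 4 were higher and 2 lower in WT and 6 and 2 in HT; Adar, the RNA-editing enzyme that restrains MDA5, rose by 0.58 and 0.62. With the correction the HT rise of Adar was 0.37. Of the other interferon-stimulated genes, 10 of 23 tested were higher and 5 lower in WT and 6 of 24 and 4 in HT.

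At P10, the question was whether the heterozygous brain differed from WT in young mice with no drug or vehicle listed. No member passed the test (0 of 38, limma; 0.0224% of all genes were called). An unadjusted p under 0.05 was reached by 7 members, 6 higher and 1 lower in HT, against 12.6% of all genes (5.73% higher, 6.84% lower), and 5 of the 7 were effectors. The members' median log2 fold change was 0.09, against -0.01 over all genes. The summed level of 5 red blood cell markers was 10377 to 13112 in WT and 5258 to 8444 in HT, and that of the 5 pericyte markers 8966 to 9608 and 7669 to 8593, in both without overlap; their part in the members' values was not tested.

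Ifi203 had the smallest p-value. At the P10 values given above, all 5 HT libraries (368 to 417) lay above all 5 WT libraries (281 to 317); Ifit1 was the other member higher without overlap and Irf9 the one lower, against 3.12% of all genes in either direction (1.43% higher, 1.69% lower). The log2 fold change was 0.39 (SE 0.0639; limma p = 3.73e-05, adjusted p = 0.118), the exact two-sided permutation p was 0.00794, the smallest that 5 against 5 allows, and leaving out any 1 library gave 0.36 to 0.41. At P120 the genotypes overlapped, with 15.5 to 48.7 in WT-Veh and 19.3 to 66.4 in HT-Veh.

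Ifit1 was likewise apart between the P10 groups, 10.1 to 18.8 in WT and 19.2 to 56.6 in HT, with a log2 fold change of 1.05 (SE 0.299, limma adjusted p = 0.292; exact permutation p = 0.00794). Mx1 followed (1.31, SE 0.423, limma adjusted p = 0.315), and 4 of the 5 HT libraries lay at 10.7 to 13.2 while the WT libraries ran from 2.37 to 11.8; without P10 HT replicate 1 its mean fell under the minimum and it was not tested. P10 HT replicate 1 also had the highest value of its group for Irf7 (65.4), Oasl2 (128), Rtp4 (73.8), Ifi44 (74.4) and Ifit2 (404), and of the 38 tested members 17 were highest in it. Among the WT libraries, replicate 1 was highest for 16 of the 38, 11 of them effectors, and its meningeal fibroblast markers summed to 24741, against 5149 to 6719 in the other 4. P10 HT replicate 1 had the lowest GC rho of the P10 libraries, at -0.40, where the other 9 lay between -0.17 and 0.21, and the part of that in these values was not tested; after the correction the changes of Ifi203 and Ifit1 were 0.32 and 1.02, neither called. Among the class I genes at P10, B2m was 1025 ± 71.5 in WT and 1009 ± 48.8 in HT (log2 -0.02, SE 0.0574), and H2-D1 1445 ± 79.3 and 1421 ± 117 (-0.03, SE 0.0625).

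**Figure D4:**
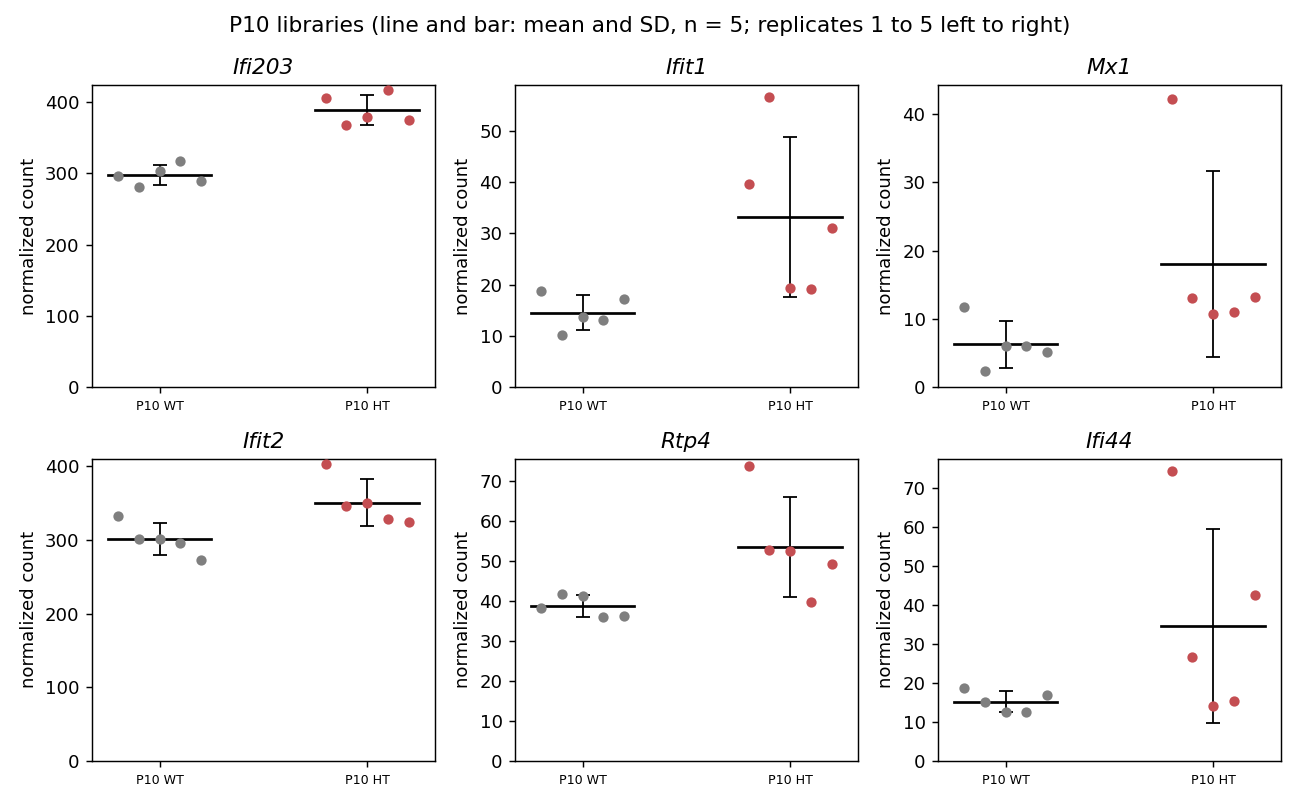
Normalized counts of Ifi203, Ifit1, Mx1, Ifit2, Rtp4 and Ifi44 in the 5 WT and 5 HT libraries at P10 (points, replicates 1 to 5 left to right; line and bar, mean and SD). Ifi203 and Ifit1 did not overlap between genotypes, and for Mx1, Rtp4, Ifi44 and Ifit2 HT replicate 1 was the highest of all 10 libraries.

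In vehicle-treated adults, HT-Veh against WT-Veh with 4 libraries each, no member passed the test (0 of 37, limma; 0% of all genes were called). An unadjusted p under 0.05 was reached by 3 members, all higher in HT-Veh, against 1.29% of all genes in either direction and 0.765% higher. The median over members was 0.17, against 0.01 over all genes, and 29 of 37 members had a value above 0, as did 51.4% of all genes. Ifit1 read 64.3, 48.2, 44.3 and 59.7 in WT-Veh and 78.0, 104, 65.7 and 98.6 in HT-Veh, without overlap, as in 1.04% of all genes in either direction and 0.534% in this one (log2 0.66, SE 0.230, limma adjusted p = 1.00; exact permutation p = 0.0286, the smallest that 4 against 4 allows). Xaf1 read 91.6, 90.9, 54.5 and 84.4 in WT-Veh and 94.4, 146, 108 and 124 in HT-Veh, also apart (0.56, SE 0.231, adjusted p = 1.00), and Oasl2 overlapped (0.51, SE 0.233, adjusted p = 1.00). In the libraries left out, Ifit1 read 48.9 in WT-Veh replicate 2 and 52.2 in HT-Veh replicate 2, and Xaf1 read 122 and 99.0. With all 5 and 5 libraries both Ifit1 and Xaf1 overlapped between the groups, and 0 of 36 members were called.

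Fluoxetine was compared with vehicle within each genotype at P120; these comparisons share their vehicle libraries with those above. In HT, no member passed the test (0 of 36, limma; 0% of all genes were called), and 6 had an unadjusted p under 0.05, 3 in each direction, against 23.1% of all genes (11.2% higher, 11.9% lower). Dhx58 and Tlr3 did not overlap between the groups, as in 1.62% of all genes. Tlr3 read 246, 254, 268, 268 and 284 in HT-Veh and 110, 186, 108, 214 and 156 in HT-Flx. Every HT-Flx library was below every HT-Veh library (log2 -0.82, SE 0.194, limma adjusted p = 0.215; exact permutation p = 0.00794), as was the case for 0.588% of all genes. Ifit2 (-0.76, SE 0.264) and Tap1 (0.54, SE 0.203) overlapped between the groups and also had adjusted p = 0.215 in limma. With the GC content and length correction the changes were -0.40 for Tlr3, -0.33 for Ifit2 and 0.25 for Tap1, each with limma adjusted p = 0.498. Without the library labelled HT-Veh replicate 2, 0 members and 0% of all genes were called.

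In WT, no member passed either (0 of 36, limma; 0% of all genes), and 7 members had an unadjusted p under 0.05, all higher in WT-Flx, against 25.2% of all genes in either direction and 10.3% higher. Ifit3 read 284, 210, 230, 254 and 246 in WT-Veh and 300, 336, 354, 360 and 327 in WT-Flx, without overlap, as in 6.41% of all genes in either direction and 2.29% in this one (log2 0.46, SE 0.100, limma adjusted p = 0.0849; exact permutation p = 0.00794). Tlr3 (0.53, SE 0.150, limma adjusted p = 0.0903) and Ifit2 (0.45, SE 0.170, adjusted p = 0.144) overlapped. With the GC content and length correction the changes were 0.38 for Ifit3, 0.24 for Tlr3 and 0.24 for Ifit2, none called. Without WT-Veh replicate 5, 2 members were called (3.49% of all genes), without WT-Veh replicate 1, 1 member (7.84%), and without the library labelled WT-Veh replicate 2, 0 members (0%).

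HT-Flx and WT-Flx brains, both from pups of fluoxetine-treated dams, differed in 20 of 36 tested members (limma), 12 higher and 8 lower in HT-Flx, when 63.7% of all genes were called, 33.1% higher and 30.5% lower. The members' share was below that of all genes. Of the class I genes 5 of 6 were higher, with B2m the exception, and of the sensors 4 were lower and 1 higher. The GC rho was 0.48 or more in every HT-Flx library and -0.56 or less in every WT-Flx library, so the genotype and the GC slope of the libraries cannot be told apart here. The 12 members called higher had a GC content of 50.9% to 56.1%, and the 8 called lower 38.8% to 49.3%, with no overlap.

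Tap1 read 142, 105, 111, 120 and 90.7 in WT-Flx and 275, 219, 207, 229 and 170 in HT-Flx, apart in all libraries, with a log2 fold change of 0.95 (SE 0.153, limma adjusted p = 2.06e-04) and of 0.40 (SE 0.127, adjusted p = 0.0278) after the correction. Ifitm3 read 244, 219, 253, 208 and 215 in WT-Flx and 474, 442, 416, 371 and 341 in HT-Flx, again apart (0.83, SE 0.113, adjusted p = 7.12e-05; 0.71, SE 0.115, adjusted p = 8.35e-04 corrected, both limma). Groups were apart in this direction for 25.6% of all genes. H2-D1 (0.78, corrected 0.51) and Psmb8 (0.74, corrected 0.36) were also called in both fits. Ifitm2, H2-K1, Psmb9, Irf7, Dhx58, Isg15, Irf1 and Irf9, higher by 0.27 to 0.85, were called only without the correction.

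Among the members lower in HT-Flx, Ifit3 read 300, 336, 354, 360 and 327 in WT-Flx and 119, 185, 181, 214 and 213 in HT-Flx (log2 -0.90, SE 0.154, limma adjusted p = 2.86e-04). Ifit2 read 264, 269, 261, 268 and 280 in WT-Flx and 70.5, 107, 94.8, 183 and 148 in HT-Flx (-1.22, SE 0.212, limma adjusted p = 3.19e-04). Mx2 read 34.8, 25, 32.8, 22.1 and 27.1 in WT-Flx and 10.3, 13.6, 16.7, 16.4 and 12.7 in HT-Flx (-0.98, SE 0.221, limma adjusted p = 0.00195). The groups were apart for all 3 genes, as for 22.9% of all genes in this direction. All 3 were called after the correction, at -0.55, -0.48 and -0.84. Tlr3 (-1.10, corrected -0.38), Eif2ak2 (-1.12, corrected -0.48), Xaf1 (-0.34, corrected -0.07), Ifi203 (-1.08, corrected 0.02) and Ifih1 (-0.69, corrected 0.21) were called only without it, and the direction of the last 2 was turned.

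In the corrected fit 10 members were called, 6 higher and 4 lower, against 35.7% of all genes. Ifit1 (1.01, SE 0.276, limma adjusted p = 0.0136), B2m (0.73, adjusted p = 0.00325) and Ifi27 (-0.40, adjusted p = 0.00688) were called in it alone, so that in this fit Ifit1 was higher while its neighbours Ifit2 and Ifit3 were lower. When all libraries were rescaled to the same sum, which moved the median of all genes to -0.23, the 20 calls became 7 higher and 13 lower, and of all calls 34.1% were higher instead of 52.0%. Microglial markers summed to 9865 to 12239 in WT-Flx and 11771 to 18125 in HT-Flx, and 6 oligodendrocyte markers to 178474 to 236994 and 250439 to 279477. Without overlap, astrocyte markers were lower in HT-Flx (62745 to 97419, WT-Flx 103450 to 115718), as were those of perivascular and border macrophages (162 to 240, WT-Flx 248 to 329), and pericyte markers (5793 to 6686, WT-Flx 4852 to 5648) and meningeal fibroblast markers (3878 to 4235, WT-Flx 2332 to 3311) were higher. These sums are without the GC content and length correction, and 48.5% of all genes did not overlap between these groups. The part of these cells was not tested. Of the other pathway genes tested in this comparison, 25 of 74 were higher and 23 lower, among them Tapbp (0.84, corrected 0.23), Adar (0.65, corrected 0.37), Gbp7, a guanylate-binding protein (-1.36, corrected -0.55), and Jak2 (-1.31, corrected -0.50).

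**Figure D5:**
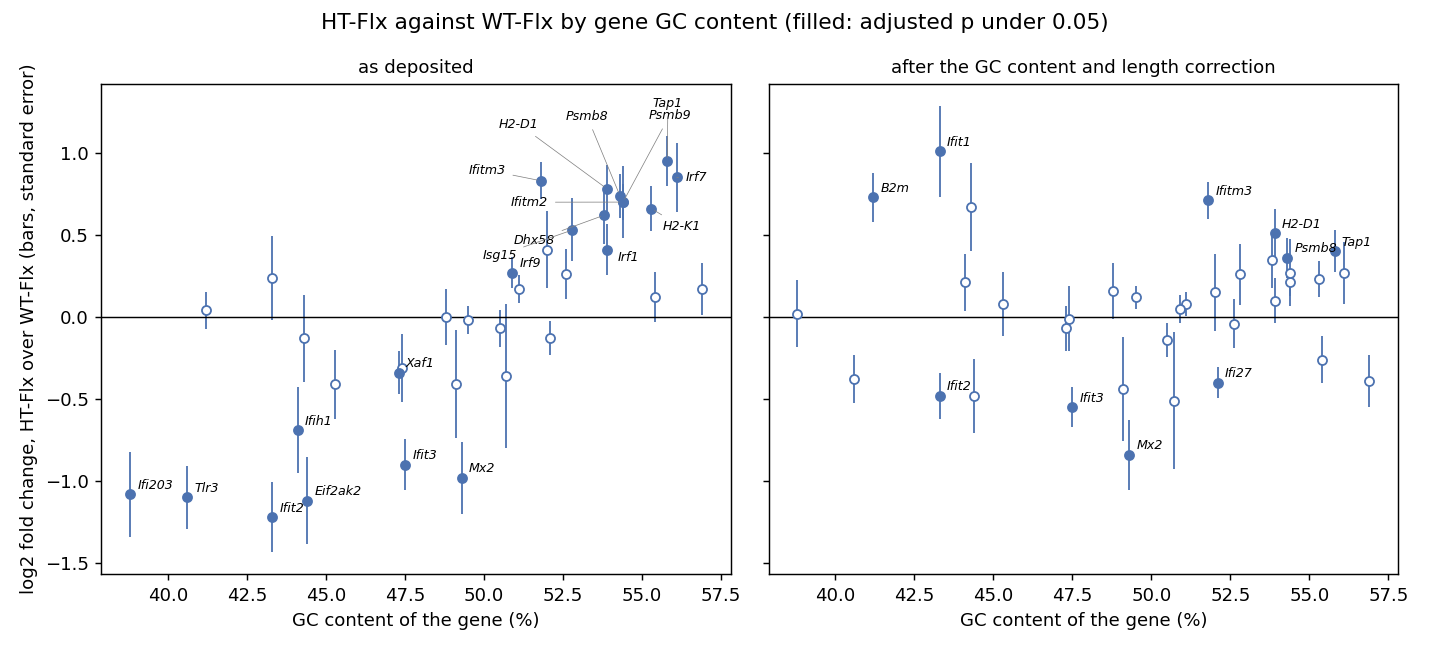
Log2 fold change of each tested member, HT-Flx over WT-Flx, against the gene's GC content, as deposited (left) and after the GC content and length correction (right), with standard errors; filled points passed the limma test and are named. On the left the members called lower lie at 38.8% to 49.3% GC and those called higher at 50.9% to 56.1%; on the right 10 members were called.

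The difference between the genotypes in their response to fluoxetine was tested as an interaction, and 5 of 36 members passed (limma), 1 positive and 4 negative, against 27.3% of all genes (15.8% positive, 11.5% negative). Tap1 was positive (0.75, SE 0.247, adjusted p = 0.0373), and Tlr3 (-1.35, SE 0.250, adjusted p = 0.0347), Ifit2 (-1.21, SE 0.331, adjusted p = 0.0347), Ifit3 (-1.07, SE 0.320, adjusted p = 0.0347) and Xaf1 (-0.73, SE 0.248, adjusted p = 0.0388) were negative. These calls were lost, with 0 members and 0% of all genes called, after the GC content and length correction and without the libraries labelled HT-Veh and WT-Veh replicate 2. The corrected values were -0.62 for Tlr3, -0.58 for Ifit2, -0.81 for Ifit3, -0.48 for Xaf1 and 0.25 for Tap1. Leaving out 1 library at a time, HT-Flx replicate 1, WT-Flx replicate 2 or 3, HT-Veh replicate 4 or 5, or WT-Veh replicate 2, 3 or 4, also gave 0 members called, although over all such leave-outs the values stayed at -1.48 to -1.24 for Tlr3, -1.38 to -1.03 for Ifit2, -1.34 to -0.91 for Ifit3, -0.86 to -0.57 for Xaf1 and 0.62 to 0.88 for Tap1. Without HT-Flx replicate 3 or WT-Flx replicate 5 it gave 3 (12.9% and 17.3% of all genes), and without WT-Veh replicate 1 it gave 8 (31.5%).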

How the data were processed

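RNA was measured by poly-A RNA-Seq (TruSeq, paired-end) in 30 whole-brain libraries. Per the labels and the study's methods, the authors quantified reads with Salmon 1.1.0 on GRCm38, with its GC bias correction, and normalized gene-level estimates in DESeq2 1.30.1. The deposited table holds this signal, normalized counts that are not whole numbers (0.21% were within 0.001 of one), for 19737 genes, so read depth is unknown and no count model, counting interval or detection limit was used. Symbols, gene coordinates, GC content and transcript lengths came from the GRCm38 annotation, and promoters from RefSeq.

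Genes with a mean of at least 10 over the compared libraries were tested on log2(value + 1) with limma 3.58.1 (R 4.3.3, moderated with an intensity trend), two-sided, with Benjamini-Hochberg adjustment over all tested genes and a threshold of 0.05; each fit held the compared groups alone. Fold changes on this scale understate those of low genes. Exact permutation tests enumerated all 252 splits of 5 against 5. The GC content and length correction used 10 x 10 bins. Samples were grouped by genotype, age and treatment in the labels. Members named are those past the threshold in a comparison (the 25 with the smallest p where more passed), or the 3 with the smallest p where none did, with at most 5 other pathway genes per list; members named beyond these were chosen after their values were seen. The members and lists were chosen with earlier results of these data known. The procedure was tested on simulated data with 200 altered genes per comparison. Of these, it called 91.5% for HT against WT at P10 and 37% for HT-Veh against WT-Veh. For fluoxetine against vehicle it called 57% in HT and 82.5% in WT. For HT-Flx against WT-Flx it called 80.5%, and for age 85% in WT and 79% in HT. The interactions gave 52% (fluoxetine) and 56.5% (age). Where this share was low, 0 members called does not show that no member differed. Alternatives were other pseudocounts, filters, scalings, corrections and blocks, and each library left out.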

Additional observations from a re-analysis of the deposited data

Results flagged for a closer look

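In groups of 5, 18 of 234 combinations of member and group had 1 library far from the other 4 (7.69%, where chance gives about 1 in 20). Among the P10 WT libraries, replicate 1 was low for Ifit3 (44.3, others 57.5 to 62.6) and high for Ifitm3 (196, others 161 to 164), and replicate 2 was high for Irf1 (138, others 98.6 to 103) and low for Sp100 (19.4, others 37.5 to 44.4). In P10 HT, replicate 1 was high for Mx1 (42.3, others 10.7 to 13.2) and low for Ifitm2 (240, others 261 to 263) and H2-D1 (1216, others 1428 to 1491), and replicate 4 was low for Bst2 (59.8, others 82.5 to 84.4). In the vehicle groups, Ifitm2 was low in WT-Veh replicate 1 (230, others 295 to 325), Stat2 in HT-Veh replicate 3 (933, others 1259 to 1418) and Psmb9 in HT-Veh replicate 4 (30.5, others 60.7 to 70.5).

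In WT-Flx, replicate 2 was low for Irf7 (30.9, others 56.0 to 69.3) and H2-K1 (715, others 987 to 1042), and replicate 3 was high for Oasl2 (140, others 100 to 109) and B2m (1802, others 1606 to 1645). In HT-Flx, Ifit3 was low in replicate 1 (119, others 181 to 214), Ifi27 in replicate 2 (527, others 661 to 724) and Bst2 in replicate 4 (80.7, others 121 to 139).

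The response to fluoxetine differed between the genotypes by the interaction test for Tlr3 (-1.35), Ifit2 (-1.21), Ifit3 (-1.07), Xaf1 (-0.73) and Tap1 (0.75), as log2 differences, HT minus WT. They were 5 of 36 tested members, against 27.3% of all genes. None of these 5 was called after the GC content and length correction, where the values were -0.62, -0.58, -0.81, -0.48 and 0.25 in the same order. The calls were also lost without the libraries labelled HT-Veh and WT-Veh replicate 2. Leaving out 1 library at a time gave 0 to 8 members called.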

How the results depend on the processing

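With the replicate number as a block, HT-Flx against HT-Veh had 2 members called (both lower; 7.67% of all genes), and with all groups in one fit 5 (2 higher, 3 lower; 33.5%), against 0. HT-Flx against WT-Flx had 10 members called with the GC content and length correction (35.7% of all genes), against 20 (63.7%). It had 9 with this correction and the replicate block, and Ifi203 turned to 0.02 and Ifih1 to 0.21 in both corrected fits. The interaction of genotype and fluoxetine had 0 with the correction, 0 with the correction and the block, and 0 without replicate 2 of HT-Veh and of WT-Veh, against 5 (27.3% of all genes). With a minimum mean of 100, which leaves fewer members to test, 13 were called for age in WT and 14 in HT. Leaving out each library in turn gave 0 to 2 for WT-Flx against WT-Veh, 16 to 20 for HT-Flx against WT-Flx, 0 to 8 for the interaction of genotype and fluoxetine, 20 to 21 for age in WT, 23 to 28 for age in HT, and 0 in every case for the other 4 comparisons. The counts with both the correction and the block, at a minimum mean of 100 and with libraries left out show how far the calls moved. They are given without the share of all genes, so they do not compare the members with all genes. The cause of the changed counts was not tested.

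Replicate numbers were not shown to pair the samples: the correlation of same-numbered deviations was -0.0177 to 0.407 for HT-Flx against HT-Veh, and in no comparison was every pair above 0.1. Pseudocounts of 5 and 0.1, no filter, median-of-ratios rescaling and limma without the trend left every count of members called within 1.5 times. Depth is unknown, so what it limits could not be computed; Ifi204 was under the minimum mean in every comparison.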
